A study of Mus musculus with 12 samples.

Results

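Chromosome 4 of the mouse outside the neighbourhood of the gene Mutyh was described by array comparative genomic hybridisation in 12 tumours. Its 6568 probes, of 170305 on the array, were those on chromosome 4 that lie below 96 Mb or from 137007289 onwards (mm9), without those that start between 88 and 90 Mb, the interval of a cyclin-dependent kinase inhibitor locus. The region and its bounds were selected on measured log2 ratios of these same tumours, namely the low level of chromosome 4 in carcinomas against lymphomas and the contrast between genotypes around Mutyh. Levels and gene counts by tumour type and by genotype are therefore given as a description, and nothing is read from a call on them. The probes fall into 3 stretches. The first stretch ran from position 3159538 to 87999363 with 4878 probes, the middle stretch from 90001266 to 95989161 with 295 probes, and the distal stretch from 137007289 to 155629081 with 1395 probes.

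All mice were C57BL/6. Treated mice had received intraperitoneal ferric nitrilotriacetate (Fe-NTA), a chelate whose iron drives oxidative injury of the renal proximal tubule. They got 5 injections weekly over 12 weeks, at 3 mg iron per kg during week 1 and at 5 mg for the 11 weeks that followed. Treated groups had 20 male mice each at the start, and tumours were taken at about 120 weeks. The 4 renal cell carcinomas came from treated mice, of which 3 were Mutyh knockouts (KO1080, KO1097, KO1134) and 1 was a wild type (WT1179). Among the 8 malignant lymphomas, 2 came from treated knockouts (KO1077, KO1111), 3 from treated wild types (WT1113, WT1114, WT1121), 1 from an untreated knockout (KO1414) and 2 from untreated wild types (WT1405, WT1420). Each tumour was compared on its own array with normal kidney DNA of C57BL/6 mice, and DNA carries no expression marker against which the labelled tumour type could be checked. The tumours bear separate animal numbers, but the labels do not say how many tumours a mouse had.

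In this assay tumour and reference DNA compete for the same probes, so the ratio follows the number of copies of a stretch of DNA per cell of the sample. Mutyh is a glycosylase that removes adenine paired with oxidised guanine, and Fe-NTA is known for inducing renal carcinoma in rodents. Loss of a whole chromosome copy is a common event in carcinomas and lowers the dose of all the genes it carries at once, whatever their function. In bulk DNA a loss in part of the cells and a loss diluted by normal cells cannot be told apart, and a loss of 1 of 2 copies in every cell would read -1 on the log2 scale.

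The probes that mark the findings are printed here as the array files give them, in mm9 and in lower case. The first pair flanks the step at which the loss of carcinoma KO1134 began, and both lie in the interval named X16670.
X16670, chr4:5191196-5191253: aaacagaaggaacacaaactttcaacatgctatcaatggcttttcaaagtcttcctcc
X16670, chr4:5203385-5203444: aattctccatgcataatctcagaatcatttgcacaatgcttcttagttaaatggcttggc
The second pair flanks the step of carcinoma WT1179 and lies in the interval of Sdcbp, which encodes the PDZ-domain adaptor syntenin-1.
Sdcbp, chr4:6293535-6293594: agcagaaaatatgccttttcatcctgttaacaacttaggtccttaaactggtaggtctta
Sdcbp, chr4:6301006-6301065: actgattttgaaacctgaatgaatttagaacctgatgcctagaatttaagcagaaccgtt
The last pair are single probes that departed from the probes around them, in the carcinomas for Nkain3 and in all 12 tumours for 2010015L04Rik. Their values are given with the single probes further on.
Nkain3, chr4:20347663-20347722: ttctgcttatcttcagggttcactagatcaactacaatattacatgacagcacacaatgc
2010015L04Rik, chr4:154806866-154806925: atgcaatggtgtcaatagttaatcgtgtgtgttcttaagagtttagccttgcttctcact

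Array quality varied. Signal to noise was 63.6 to 95.8 in green and 75.03 to 124 in red, and WT1121 was lowest in both colours. In red the carcinomas lay at 76.3 to 96.7 and the lymphomas other than WT1121 at 99.4 to 124. The spread of differences between neighbouring probes was 0.115 to 0.169. On every array 99.8% of the chromosome 4 probes were well above background. Slide 1 held the 4 carcinomas and nothing else, so slide and tumour type cannot be told apart. Slide 2 held 4 of the 5 treated lymphomas, and slide 3 held WT1121 with the 3 untreated lymphomas.

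Chromosome 4 was low in each carcinoma and near the reference in most lymphomas. The mean log2 ratio over the probes, with 0 set at the most frequent autosomal ratio of each array, was -0.70 in WT1179, -0.66 in KO1097, -0.42 in KO1080 and -0.29 in KO1134. These levels correspond to 61.7%, 63.4%, 74.7% and 81.6% of the reference dose. The carcinoma mean was -0.52 ± 0.19 (SD, n = 4). Lymphomas ranged from -0.13 in WT1113 to 0.03 in KO1111, with a median of -0.01 and a mean of -0.02 ± 0.05 (SD, n = 8). The highest carcinoma thus lay below the lowest lymphoma. Of the single probes, between 96.1% and 99.5% read below 0 in a carcinoma, against 47.6% to 78.1% in a lymphoma.

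The 3 stretches of a carcinoma had nearly the same level. KO1080 stood at -0.42 in the first, -0.41 in the middle and -0.43 in the distal stretch. KO1097 stood at -0.67, -0.66 and -0.63 in the same order. KO1134 stood at -0.30, -0.31 and -0.28, and WT1179 at -0.69, -0.69 and -0.73. The distal minus the first stretch averaged 0.00 ± 0.04 over the carcinomas (SD, n = 4), with 2 tumours in each direction and an exact two-sided sign-flip permutation p of 1, where 0.125 is the smallest p that 4 tumours allow.

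**Figure D1:**
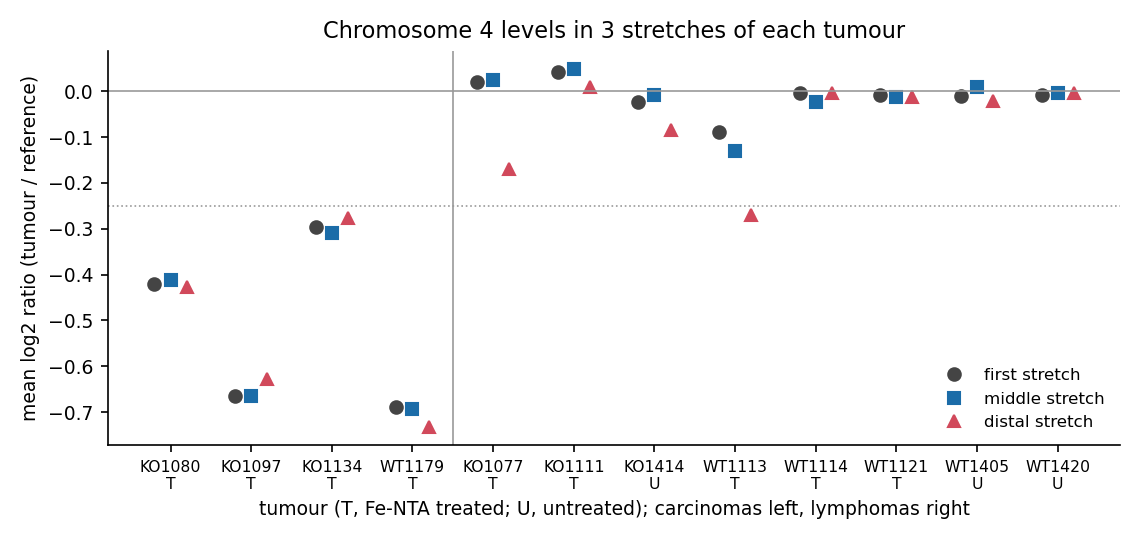
Mean log2 ratio of tumour over reference DNA (vertical axis) in the first, middle and distal stretch of chromosome 4 for each of the 12 tumours (horizontal axis), with the call threshold of -0.25 dotted. The 3 symbols of each carcinoma lie close together below the threshold, while the distal stretch stands apart in lymphomas KO1077 (-0.17) and WT1113 (-0.27).

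Carcinoma levels were alike on both sides of the bounds of the region. In windows of 1 Mb, the median probe averaged -0.53 over the carcinomas just before the left-out Mutyh stretch and -0.55 just within it. At its far end the values were -0.53 on the kept side and -0.54 on the left-out side. The bounds at 88 and 90 Mb gave -0.51 against -0.55 and -0.57 against -0.52, again as kept against left-out side. Lymphomas gave -0.02 against -0.07, -0.07 against -0.07, 0.03 against -0.01 and -0.03 against -0.02 at the same 4 bounds.

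Divided into segments, with a loss called at a mean of -0.25 or lower over at least 5 probes, the loss covered 99.98% of the probes of KO1080, 99.97% of those of KO1097, 98.5% for KO1134 and 97.3% for WT1179. Over all autosomes the called share was 10.5%, 18.5%, 33.7% and 15%, in the same order. Lymphoma WT1113 had 14.4% of the probes in a called loss, against 0.688% of its autosomal probes. The other 7 lymphomas had none, and no tumour had a called gain on these probes. KO1134 lay nearest the threshold, and when arrays were centred on the autosomal median its level was -0.23, so that its call was lost.

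KO1080 and KO1097 were low over all 3 stretches with no kept end, but KO1134 and WT1179 each kept the end nearest the centromere. In KO1134 the first 97 probes, from 3159538 to 5191253 or 2.03 Mb, averaged -0.02 ± 0.13 (SD over probes), and the next 100 probes averaged -0.31. Its loss began at 5203385, which leaves 12131 bases between the flanking probes. In WT1179 the first 179 probes, up to 6293594 or 3.13 Mb, averaged -0.01 ± 0.16 (SD over probes), and the next 100 averaged -0.71. Its loss began at 6301006, 7411 bases further on. The steps therefore lay at different places, and the other carcinomas read -0.41 and -0.64 (KO1080 and KO1097) over the end kept in KO1134, and -0.43 and -0.67 over the end kept in WT1179.

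The step of WT1179 fell within Sdcbp. The single Sdcbp probe on the kept side read 0.23 in WT1179, -0.20 in KO1080, -0.72 in KO1097 and -0.43 in KO1134. The 3 Sdcbp probes on the other side averaged -0.72 in WT1179, and -0.52, -0.93 and -0.38 in the other carcinomas in the same order. WT1179 alone among the carcinomas thus read above 0 on the near side of Sdcbp, while on its far side all 4 were low. In lymphomas the near probe ranged from -0.24 to 0.58 with a median of 0.01, which shows how widely 1 probe varied. In KO1134 the step fell within X16670, a name that the array also gives to probes on another chromosome, with 5 probes on the kept side averaging -0.09 and 20 on the lost side averaging -0.34.

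The kept ends carried few named genes. KO1134 kept 13 gene names, among them Tmem68, Tgs1, Lyn, Plag1, Chchd7, Sdr16c5, Sdr16c6, Penk and Impad1. WT1179 kept 21 names wholly and Sdcbp in part, with Fam110b, Ubxn2b and Cyp7a1 besides those 9. Lyn, a Src-family tyrosine kinase of haematopoietic cells, stood at -0.38 and -0.57 in KO1080 and KO1097 and at 0.06 and 0.01 in KO1134 and WT1179, and its lymphomas ranged from -0.01 to 0.17 with a median of 0.09. Plag1, a zinc finger proto-oncogene, read -0.46, -0.65, -0.08 and 0.16 in that carcinoma order. Tgs1, which trimethylates the cap of small nuclear RNAs, read -0.37, -0.62, -0.00 and 0.05. These genes were low in 2 of the 4 carcinomas, and the remaining carcinomas overlapped the lymphomas or lay close to them. Fam110b, beyond the step of KO1134 and within the kept end of WT1179, read -0.46, -0.78, -0.37 and -0.01.

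**Figure D2:**
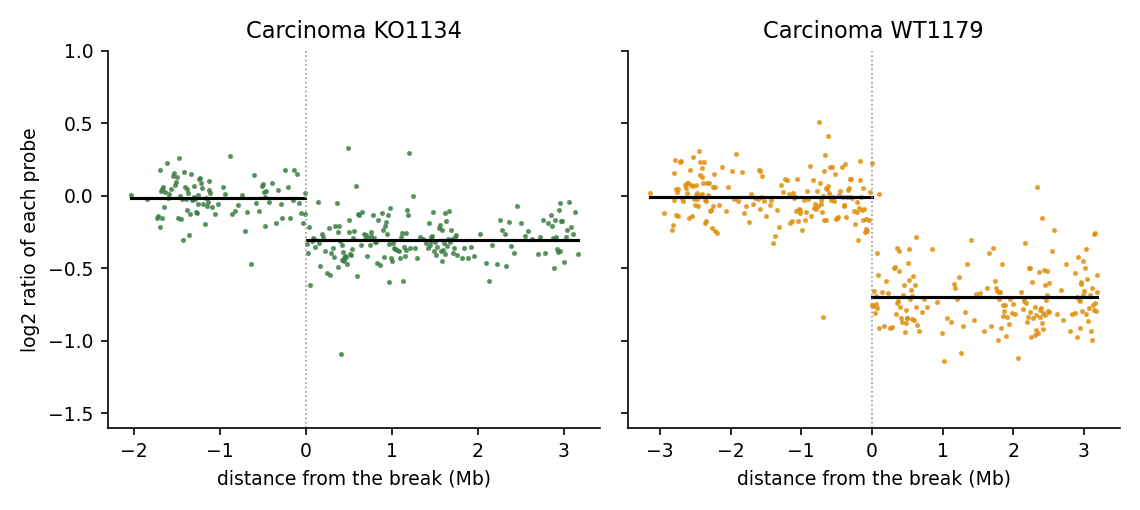
Log2 ratio of each probe (vertical axis) against its distance in Mb from the step (horizontal axis) in carcinomas KO1134 and WT1179, with black lines at the mean of each side. Probes left of the step centre near 0 in both tumours, and probes right of it centre lower in WT1179 than in KO1134.

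In each carcinoma chromosome 4 stood at about the level of the other chromosomes with over 70% of probes in called losses. In KO1080 the median was -0.43 on chromosome 4 and -0.42 on chromosome 12. In KO1097 it was -0.68 on chromosome 4, -0.65 on 12, -0.68 on 13 and -0.61 on 16. KO1134 read -0.30 on chromosome 4, -0.29 on 3, -0.30 on 8, -0.27 on 9, -0.29 on 10 and -0.24 on 12. Chromosomes lost over a smaller part were not compared. Examples are chromosome 14 of KO1134 (50.3% of probes in called losses, median -0.15) and chromosome 5 of WT1179 (42.3%, median -0.07). The chromosomes compared were picked by loss calls on the same ratios, so a low level was part of that choice. WT1179 read -0.74 on chromosome 4 and -0.74 on chromosome 12. The lost chromosomes were lowest in WT1179 and KO1097 and least low in KO1134, as chromosome 4 was, which is given as a description.

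**Figure D3:**
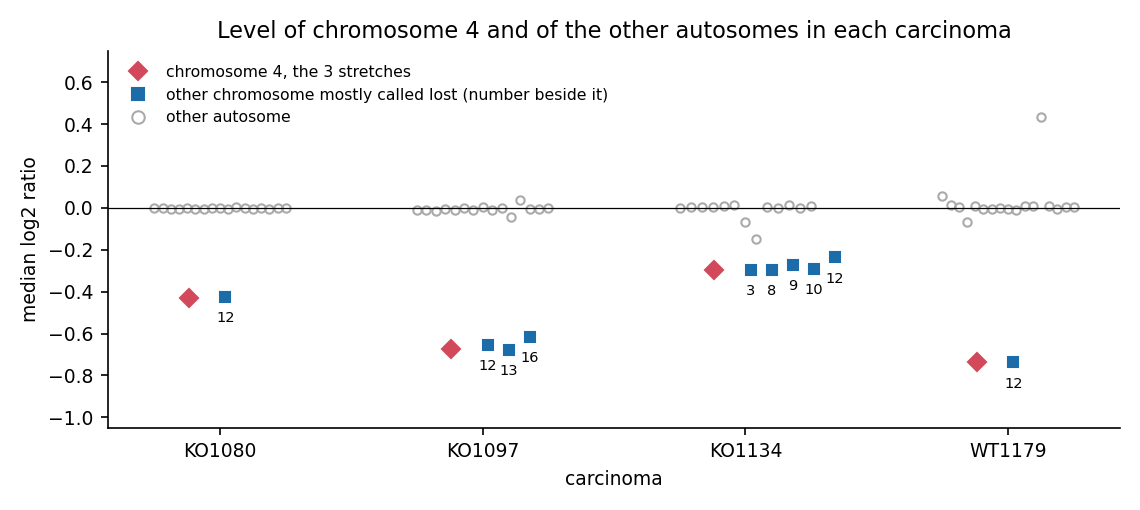
Median log2 ratio (vertical axis) of chromosome 4 over the 3 stretches (diamond), of other chromosomes with over 70% of probes called lost (squares with their numbers) and of the remaining autosomes (circles) in each carcinoma (horizontal axis). Diamond and squares of a tumour lie side by side, near -0.42 in KO1080, between -0.68 and -0.61 in KO1097, between -0.30 and -0.24 in KO1134 and near -0.74 in WT1179.

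Across bins of 1 Mb the loss was even. Of 109 bins with at least 10 probes, all 4 carcinomas were below 0 in 108 and at or below -0.15 in 106. Each carcinoma lay below each lymphoma in 96 bins, where the same held for 11.3% of autosomal bins. The 13 bins that overlapped were 3 at the kept ends and 10 in the distal stretch, where lymphoma WT1113 reached the level of carcinoma KO1134. The SD over bins was 0.03 in both KO1080 and KO1097, 0.05 in KO1134 and 0.12 in WT1179, and the latter pair include the kept ends. WT1179 was the lowest tumour in 99 bins and KO1097 in the other 10.

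**Figure D4:**
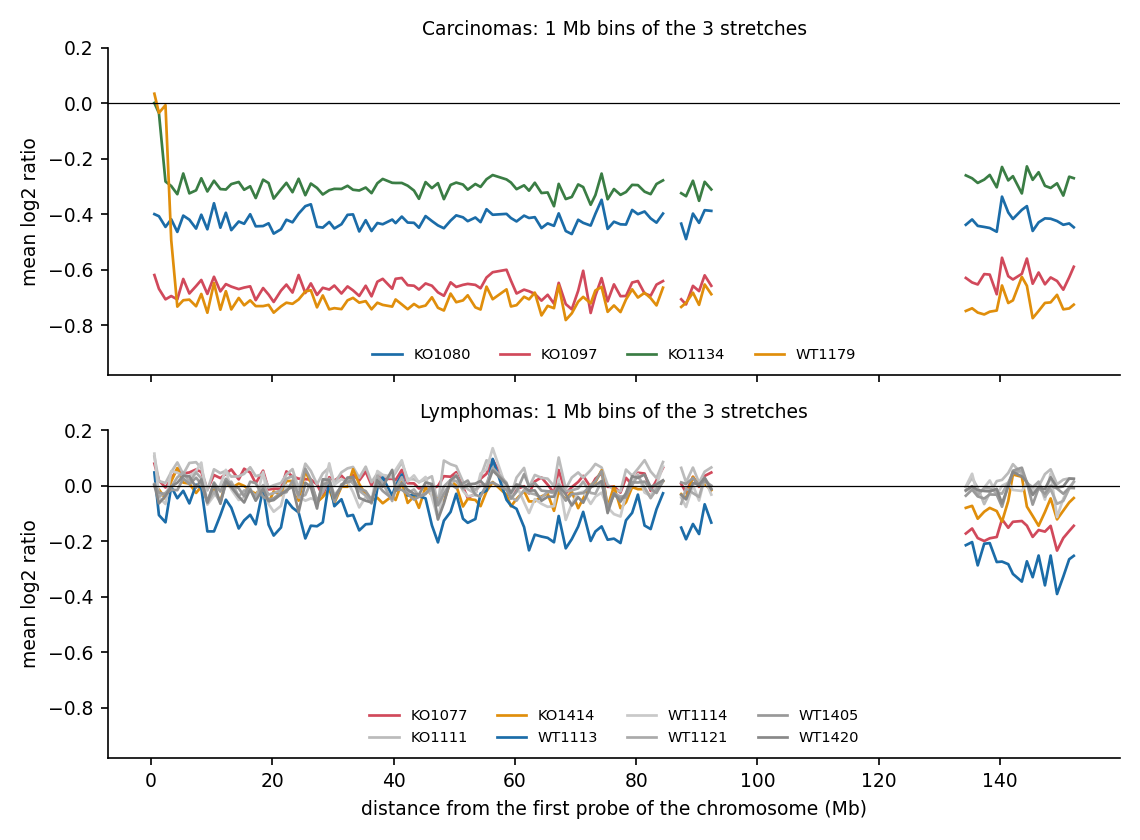
Mean log2 ratio of 1 Mb bins (vertical axis) against distance in Mb from the first probe (horizontal axis), with carcinomas above and lymphomas below and gaps where the left-out regions lie. The carcinoma lines run flat after the kept ends of KO1134 and WT1179, and lymphomas WT1113 and KO1077 drop in the distal stretch.

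Genes were read as the mean of their probes and fitted with limma, with additive terms for tumour type, genotype and treatment. Of the 793 genes with all probes in the 3 stretches, 703 were lower in carcinomas at an adjusted p under 0.05 and 0 higher, against 12.7% of autosomal genes called lower. Each carcinoma lay below each lymphoma for 578 of the 793 (72.9%), against 10.3% of autosomal genes. The tumour type contrast chose the region, so these counts restate that choice and are no evidence of a difference. The median difference was -0.52 over the 793 genes and -0.09 over all autosomal genes. The lists that follow were compiled with results of these tumours known, and each is given by its medians and by how many of its genes had each carcinoma below each lymphoma, to be read beside the 72.9% of the region's genes and the 10.3% of autosomal genes.

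Of 18 listed tumour suppressor candidates, 16 had probes, and the tumour types did not overlap for 11 of these. Their median was -0.50 in carcinomas and -0.04 in lymphomas. Ptprd, a receptor tyrosine phosphatase read by 69 probes, stood at -0.41, -0.73, -0.36 and -0.68 in KO1080, KO1097, KO1134 and WT1179, the carcinoma order kept from here on, with lymphomas from -0.19 to 0.09 and a median of 0.01. Chd7, a chromatin remodeller, stood at -0.41, -0.64, -0.26 and -0.68, with lymphomas from 0.01 to 0.11. The groups did not overlap for either gene. Casp9, the initiator caspase of the mitochondrial death pathway, stood at -0.56, -0.73, -0.41 and -0.81, and its lymphomas reached from -0.47 to -0.05, so that WT1113 lay below KO1134. Trp73, of the p53 family, stood at -0.34, -0.59, -0.24 and -0.67 against lymphomas from -0.29 to -0.01, again with an overlap. Errfi1, a feedback inhibitor of EGF receptor signalling, stood at -0.32, -0.66, -0.23 and -0.63 and overlapped with lymphomas from -0.30 to 0.34.

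Of 16 genes of growth and proto-oncogenes 13 had probes, and the tumour types did not overlap for 6. Lyn and Plag1, in the kept ends, were among those that overlapped. The median was -0.50 in carcinomas and -0.01 in lymphomas. Melk, a mitotic kinase, stood at -0.51, -0.70, -0.35 and -0.87, with lymphomas between -0.07 and 0.08. Mtor, the kinase at the centre of nutrient signalling, stood at -0.34, -0.52, -0.19 and -0.61, and its lymphomas ranged from -0.22 to 0.08 with a median of 0.05. Ski, a repressor of TGF-beta signalling, stood at -0.49, -0.71, -0.30 and -0.82 against -0.41 to -0.00. Melk thus separated the tumour types, and Mtor and Ski, both in the distal stretch, overlapped through WT1113.

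Of 10 DNA repair genes 8 had probes, with no overlap for 7, and with medians of -0.48 in carcinomas and 0.05 in lymphomas. Nbn, of the complex that senses double-strand breaks, stood at -0.37, -0.66, -0.31 and -0.66, and its lymphomas lay between 0.01 and 0.23. Xpa, which verifies damage in nucleotide excision repair, stood at -0.46, -0.63, -0.28 and -0.65 against -0.10 to 0.18. Smc2, a condensin subunit, stood at -0.30, -0.61, -0.25 and -0.59 against -0.02 to 0.28. None of these 3 overlapped between tumour types.

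Of 10 genes of iron, heme, redox and mitochondria 9 had probes, with no overlap for 6 and medians of -0.55 in carcinomas and -0.02 in lymphomas. Aco1, the iron regulatory protein that is also the cytosolic aconitase, stood at -0.51, -0.69, -0.39 and -0.72, with lymphomas from -0.09 to 0.12. Pink1, a kinase of mitochondrial quality control, stood at -0.46, -0.64, -0.32 and -0.78 against -0.15 to 0.12. Both were low in all 4 carcinomas with no overlap. Sdhb, the iron-sulfur subunit of succinate dehydrogenase, stood at -0.48, -0.62, -0.23 and -0.84, with an overlap with lymphomas that reached down to -0.39 in KO1077.

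Kidney genes gave no overlap for 7 of 9 with probes (11 listed), with medians of -0.46 in carcinomas and -0.04 in lymphomas. Aqp7, a water and glycerol channel of the proximal tubule, stood at -0.42, -0.64, -0.18 and -0.58, and its lymphomas ranged from -0.07 to 0.28. Invs, a ciliary protein, stood at -0.34, -0.57, -0.25 and -0.64 against -0.02 to 0.06. Slc2a5, the fructose transporter, stood at -0.51, -0.63, -0.27 and -0.82 and overlapped with lymphomas at their lowest of -0.39.

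Lymphoid and immune genes gave no overlap for 7 of 12 with probes (18 listed), with medians of -0.58 in carcinomas and -0.06 in lymphomas. Pax5, the factor that sets B cell identity, stood at -0.47, -0.69, -0.31 and -0.83, with lymphomas between -0.06 and 0.00. Bach2, a repressor in B and T cells, stood at -0.49, -0.73, -0.35 and -0.80 against -0.03 to 0.10. Receptor genes of the tumour necrosis factor family in the distal stretch varied. Tnfrsf9 stood at -0.47, -0.67, -0.34 and -0.84 against lymphomas from -0.37 to -0.07. Tnfrsf1b stood at -0.32, -0.56, -0.23 and -0.75 against lymphomas from -0.30 to 0.05. Both overlapped, whereas Tnfrsf25, read by 1 probe, did not overlap.

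All 12 very large genes had probes, with no overlap for 10 and medians of -0.52 in carcinomas and -0.02 in lymphomas. Lingo2, with 130 probes, stood at -0.39, -0.66, -0.30 and -0.68, and Astn2, with 103 probes, at -0.42, -0.68, -0.32 and -0.70. Camta1, with 86 probes in the distal stretch, stood at -0.43, -0.66, -0.31 and -0.72 and overlapped with WT1113 at -0.37. Of 7 genes of tandem families with probes, each read by 1 probe, 5 did not overlap, with medians of -0.58 and -0.11. Over all 8 lists, limma called 0 genes by treatment.

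**Figure D5:**
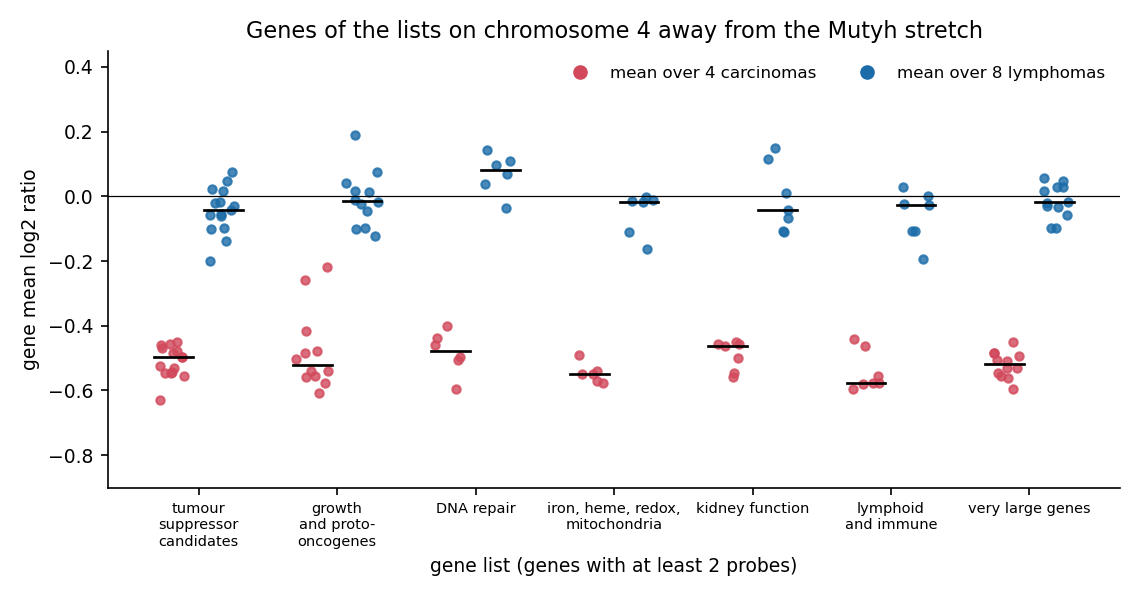
Mean log2 ratio over the 4 carcinomas (red) and over the 8 lymphomas (blue) of each gene with at least 2 probes (vertical axis) in 7 gene lists (horizontal axis), with a line at the median of the genes. All red points lie below the blue points of their list, and Lyn and Plag1 are the highest red points.

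Genes were also ranked by their departure from the chromosome 4 median of their own tumour, among those with at least 3 probes. Arhgef16, a guanine nucleotide exchange factor, was lowest in carcinomas with a departure of -0.20 ± 0.14 (SD, n = 4), at levels of -0.46, -0.85, -0.54 and -1.10. Ctnnbip1, which keeps beta-catenin from TCF, departed by -0.11 ± 0.06, Slc35e2 by -0.11 ± 0.08, Akap2 by -0.11 ± 0.04 and the corepressor Tle1 by -0.10 ± 0.06. At the upper end stood 2010015L04Rik at 0.36 ± 0.10, 2610109H07Rik at 0.35 ± 0.05, Lyn at 0.32 ± 0.32, Tgs1 at 0.30 ± 0.34 and Impad1 at 0.29 ± 0.37. The last 3 of these lie in the kept ends, and their large SDs reflect 2 tumours at 0 and 2 at the level of loss.

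In lymphomas the lowest departures were those of Casp9 (-0.17 ± 0.12, SD, n = 8), Tnfrsf9 (-0.16 ± 0.06), Arhgef16 (-0.15 ± 0.13), the ubiquitin ligase Ube4b (-0.11 ± 0.08) and the receptor kinase Epha2 (-0.10 ± 0.06), all in the distal stretch. The highest were BC156134 (0.24 ± 0.09), Plag1 (0.22 ± 0.05), Dcaf12 (0.21 ± 0.16), 2010015L04Rik (0.21 ± 0.09) and Nfx1 (0.20 ± 0.10). Arhgef16 was thus low and 2010015L04Rik high against their tumour's median in both tumour types. Of the 4 probes of 2010015L04Rik, 1 is the single probe that stood above its neighbours in all 12 tumours. That probe raises the mean of the gene, and the gene was not ranked without it. Plag1 ranged in lymphomas from 0.07 to 0.29, all above 0.

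Single probes were set against the 20 probes around them. In 6 of the 6568 probes each carcinoma departed at least 0.5 lower than each lymphoma, against 0.0545% of autosomal probes. They lay in Nkain3, Ptprd, Nphp4, Agrn, AK202125 and an interval with no gene name. At the Nkain3 probe the carcinomas departed by -1.79, -1.88, -1.93 and -1.89, and in lymphomas it ranged from -0.26 to -0.02 with a median of -0.17. The departure was as deep in KO1134 as in WT1179, although the loss around it was not. The probe in Ptprd departed by -1.01 to -0.89 in the carcinomas, within a gene whose 69 probes averaged the level of the chromosome.

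In 2 probes each carcinoma departed at least 0.5 higher than each lymphoma, against 0.0211% of autosomal probes. That in the interval named AK214422 departed by 0.44, 0.64, 0.46 and 0.57 in carcinomas and by -0.23 to -0.09 in lymphomas. Since the carcinomas shared slide 1, which no lymphoma did, the part of the slide in these 8 probes was not tested. A further 3 probes departed by at least 0.5 upwards in all 12 tumours, against 0.0242% of autosomal probes. That in 2010015L04Rik ranged from 0.60 to 0.99 in carcinomas and from 0.64 to 0.81 in lymphomas, so it stood above its neighbours in tumours with and without the loss. Tnfrsf25, read by 1 probe and chosen here after its values were seen, had the lowest mean of all the genes in carcinomas, -1.34, at -1.33, -1.25, -1.39 and -1.41.

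The distal stretch lay below the first in some lymphomas, most of all in KO1077 and WT1113. In KO1077 the first stretch stood at 0.02, the middle at 0.02 and the distal at -0.17. In WT1113 they stood at -0.09, -0.13 and -0.27, and in KO1414 at -0.02, -0.01 and -0.08. These 3 were the lowest of the 8. The distal stretch of the others was 0.01 in KO1111, -0.00 in WT1114, -0.01 in WT1121, -0.02 in WT1405 and -0.00 in WT1420. Their first stretch was 0.04 in KO1111 and between -0.01 and -0.00 in the other 4.

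The lower level began at different places. In KO1077 a single segment at -0.17 began at 133720794, within the left-out region, and ran to the last probe. In WT1113 a segment at -0.22 ran from 135503779 to 141804087 and a called loss at -0.29 from 141814047 to 155629081, over 947 probes and 13.8 Mb. In KO1414 a segment at -0.08 began at 122218594, within the left-out region. The last segment of knockout carcinoma KO1080 began at the same probe. WT1113 also had shallow steps in the first stretch, such as -0.17 from 62226526 to 81490198 beside 0.03 from 57577210 to 62218573. These were not particular to WT1113. WT1114, also on slide 2, formed a single segment, but its bins moved the same way. The 1 Mb bins that start at 59 and 71 Mb read 0.14 and -0.12 in WT1114, and 0.10 and -0.23 in WT1113. Over the 109 bins the correlation between KO1077 and WT1113, which shared slide 2, was 0.79, the highest for KO1077. With the other lymphomas of slide 2, KO1077 correlated at 0.50 (KO1111) and 0.22 (WT1114). With those of slide 3 it correlated at 0.62 (KO1414), 0.18 (WT1121), 0.19 (WT1405) and -0.0014 (WT1420). Between WT1113 and WT1114, both on slide 2, the correlation was 0.64. The part of the slide in these values was not tested. Bins of 1 chromosome are not independent, and these are descriptions.

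The distal minus the first stretch averaged -0.06 ± 0.08 over the 8 lymphomas (SD), lower in 7 of 8, with an exact two-sided sign-flip permutation p of 0.0312 and 0.0938 after Benjamini-Hochberg adjustment over 3 tests. Over all 12 tumours it averaged -0.04 ± 0.07, lower in 9, with an exact permutation p of 0.0811 and 0.122 adjusted. Neither passed 0.05 after adjustment. Single tumours decided the call, since the adjusted exact permutation p fell to 0.0469 in lymphomas without WT1420 and to 0.0498 over all tumours without KO1097. Without KO1077 and WT1113, a setting chosen after seeing the data, the lymphoma difference was -0.017 (adjusted exact permutation p = 0.375).

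The choice of the region had not used the contrast of Fe-NTA treatment. Treated lymphomas stood at -0.02 in KO1077, 0.03 in KO1111, -0.13 in WT1113, -0.00 in WT1114 and -0.01 in WT1121. Untreated lymphomas stood at -0.04 in KO1414, -0.01 in WT1405 and -0.01 in WT1420, within the range of the treated. The means were -0.025 and -0.018, with a difference of -0.0070 and an exact two-sided permutation p of 0.911 over 56 splits, of which the smallest possible p is 0.0179. The distal stretch alone differed by -0.05 (exact permutation p = 0.518) and the first by 0.0066 (exact permutation p = 0.821), each with an adjusted p of 0.911. The sign of the overall difference rested on WT1113, without which it was 0.019 (exact permutation p = 0.371). On slide 3, the only slide with both, WT1121 at -0.0090 was 0.0093 above the mean of the untreated lymphomas.

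By gene, limma called 0 of the 793 genes between treated and untreated, against 0% of autosomal genes. At an unadjusted p under 0.05 there were 34 of the 793 and 2129 of 20281 autosomal genes. Without WT1121 limma called Agrn (-0.41, adjusted p 0.0300), Pdp1 (0.81, adjusted p 0.0118) and Tpm2 (0.39, adjusted p 0.0405), against 2.36% of autosomal genes in that setting. They were chosen for mention after that result was seen and rest on at most 2 probes each. Without that tumour the treated lymphomas all lay on slide 2 and the untreated on slide 3, so that slide and treatment cannot be told apart in lymphomas there.

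Genotype is given as a description. Knockout lymphomas averaged -0.01 (n = 3) and wild-type lymphomas -0.03 (n = 5), a difference of 0.026 that was 0.0016 without WT1113. Knockout carcinomas averaged -0.46 ± 0.18 (SD, n = 3) and the single wild-type carcinoma read -0.70, next to KO1097 at -0.66. Limma called 0 of the 793 genes between genotypes, against 0.0641% of autosomal genes. At an unadjusted p under 0.05 there were 19 of the 793 and 1038 of 20281 autosomal genes.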

How the data were processed

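Genomic DNA of 12 tumours (Cy5) was hybridised against normal kidney DNA (Cy3), 1 array per tumour on 3 slides, per the labels. The intensity values deposited by the authors had been processed with Feature Extraction 10.7.1.1 by Agilent (background subtraction, linear dye normalization), with probes placed on mm9, per the file headers. The deposited table of the whole series holds the log2 ratio of the same signals, judged by comparison with the scanner values, and served as an alternative. Its match to the scanner values left neither scale nor direction unsettled, and no column belonged to another series.

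Here log2 of red over green was taken per probe, outlier spots were left out and each array was centred on its autosomal mode (kernel bandwidth 0.05). Between 0 and 4 of the 6568 probes had no value on an array. Segments came from penalised least squares (penalty factor 10, scaled by noise variance and log probe number). A call needed a mean at least 0.25 from 0 over at least 5 probes. Genes were fitted with limma 3.58.1 in R 4.3.3 over 20281 autosomal genes, with Benjamini-Hochberg adjustment. Other tests were exact sign-flip and permutation tests. Each method was tested on simulated data. Of 798 gene names on the probes 530 matched RefSeq, the others were kept as the array gives them, and 2196 probes had no name. The reference tables were used for names only. The array gives a gene interval per probe, so exon, intron or UTR was not analysed here. The number of arrays limits the precision.

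The members and the gene lists were chosen with earlier results of these data known. The genes named were those of the lists with at least 2 probes, and the 5 lowest and 5 highest by departure from their tumour's median among genes with at least 3 probes, for each tumour type. Other genes named were chosen after their values were seen. Alternatives covered centring, background correction, the series-wide table, outlier spots, GC content, call threshold, penalty, gene filter, slide as a block and leaving out each tumour. Values of some genes and probes are not reported here.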

Additional observations from a re-analysis of the deposited data

Results flagged for a closer look

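Groups of 4 to 10 values, of carcinomas or of lymphomas, were examined for a tumour that stood apart by Dixon's criterion. The criterion asks whether the gap to the next tumour is large for the range of the group. Of 142 groups 12 were flagged, and in all 12 the tumour was lymphoma WT1113. The carcinoma groups among the 142 do not hold WT1113, so 12 of 142 understates its share. Chance alone gives about 1 such case in 20 groups, and the groups share tumours and probes. The mean of WT1113 over the chromosome 4 probes, -0.13, was the lowest of the 8 lymphomas (next -0.035) and of the 5 wild-type lymphomas (next -0.012). Within the wild types it was also lowest in the first stretch (-0.089), in the distal stretch (-0.27) and in their difference (-0.18). In the middle stretch it was lowest of the lymphomas and of the wild types at -0.13. Among named genes it was the low lymphoma for Runx1t1 (-0.22), Tek (-0.10), Astn2 (-0.23), Adamtsl1 (-0.17) and Lingo2 (-0.10), all of them outside the distal stretch.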

How the results depend on the processing

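The levels per tumour type kept their direction under all alternatives run, and so did the carcinoma means of the 72 genes examined, of which 0 changed sign. The carcinoma mean ranged from -0.59 to -0.46 and the lymphoma mean from -0.03 to -0.01 with 1 tumour left out. The share of probes called lost in carcinomas was 74.3% with centring on the autosomal median. With centring on the median without chromosomes 4 and 12 it was 93.6%. Under both centrings KO1134 lay near the threshold. With a call at 0.4 the share was also 74.3%, since the lost segments of KO1134, at -0.31 to -0.27, did not reach that threshold. With 1 carcinoma left out it was 98.6% to 99.5%, and in lymphomas 0 to 2.06%. A call at 0.15 gave 7.20% of probes and 2 lymphomas with a loss, a penalty factor of 5 gave 2 lymphomas, and a call at 0.4 gave 0. The step positions of KO1134 and WT1179 were the same in each of 9 alternatives. Genes called lower in carcinomas numbered 558 to 742 of the 793 with 1 tumour left out, against 2030 to 3103 of 20281 autosomal genes. With centring on the median there were 647, against 2136 of 20281. Among genes with at least 3 probes, where fewer genes were tested, there were 347 of 364, against 1078 of 9056. The tumour type contrast chose the region, so these counts restate that choice in every setting. Centring on the median moved the median difference of all genes from -0.09 to -0.03. With slide as a random block (correlation -0.04) 722 were lower, against 2937 of 20281 autosomal genes. Slide 1 held the 4 carcinomas and nothing else, so a slide block cannot separate slide from tumour type. Calls by treatment ranged from 0 to 3 and by genotype were 0 throughout. With 1 tumour left out, the distal minus the first stretch ranged from -0.046 (without KO1097) to -0.025 over all tumours, from -0.068 (without WT1420) to -0.041 in lymphomas and from -0.0097 to 0.017 in carcinomas, where it was -0.0097 without KO1097 and -0.0047 without KO1134. The treated minus untreated difference ranged from -0.022 to 0.019 (without WT1113) with 1 lymphoma left out. It was 0.0093 within slide 3 and 0.026 without KO1077 and WT1113, an alternative chosen after seeing the data, under which the stretch difference was -0.0097 over all tumours and -0.017 in lymphomas. With normexp background correction the treated minus untreated difference was -0.047 (exact permutation p = 0.321). The cause of these changes was not tested. The genotype difference ranged from 0.00 to 0.04 in lymphomas and from 0.16 to 0.34 in carcinomas. No paired analysis was possible because the groups share no replicate numbers. With 4 carcinomas no sign-flip test can pass 0.05.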
